A study of Mus musculus with 81 samples.

Results

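Npas4, Bdnf and 8 further activity-regulated genes of synapses and secretion (Nptx2, Homer1, Inhba, Scg2, Pcsk1, Vgf, Rgs2 and Ntrk2) were followed through RNA and macroH2A (mH2A) chromatin of mouse hippocampal area CA1. The 10 genes were taken as a named set, with no threshold on their values, and all 10 were present in each of the 3 RNA count tables, which list 55536, 20801 and 24500 genes. All 10 passed the filter on low counts in every comparison. They were also located among 21755 protein-coding genes that were set against the lists of mH2A domains.

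The study asked how the histone variants mH2A1, encoded by H2afy, and mH2A2, encoded by H2afy2, act on hippocampal transcription at rest and after learning. It used male C57BL/6J mice of 9 to 12 weeks. In a depletion experiment, 9 mice received AAV-DJ vectors in dorsal CA1 that carried a scrambled shRNA (shScr), an shRNA against H2afy (shH2afy) or an shRNA against H2afy2 (shH2afy2), 3 mice each. In a training experiment, 12 mice received shScr or shH2afy, 3 mice in each of 4 groups. They either stayed in the home cage (untrained) or were taken 1 h after contextual fear conditioning (trained). The methods of the study give 3 foot shocks for conditioning, and its behavioural results give 1. A further 5 mice without virus, called intact here, gave 3 untrained and 2 trained samples, again 1 h after training. Chromatin immunoprecipitation (ChIP) was made in mice without virus at 30 min (3 untrained and 2 trained mice, each with both antibodies), at 1 h (2 untrained and 2 trained for mH2A1, 3 and 3 for mH2A2) and at 6 h (5 untrained and 5 trained, mH2A1 alone). All untrained mice were home-cage mice, so context, shock and handling were not separated. Expression of the shRNA was driven by the U6 promoter, which is not limited to neurons, and the vectors had 2 weeks to act before tissue that fluoresced with GFP was dissected.

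By way of background, neuronal activity opens a transcription programme in waves. Npas4 is an early, calcium-dependent transcription factor of neurons, and later genes carry the response to the synapse: Bdnf is a neurotrophin that signals through the receptor TrkB (Ntrk2), Scg2 and Vgf are cargo proteins of dense-core vesicles, and Pcsk1 is a convertase that cleaves precursors in those vesicles. Nptx2 is a secreted pentraxin that clusters AMPA receptors, Homer1 encodes postsynaptic scaffolds together with a short activity-induced form, Inhba encodes the subunit of activin A, and Rgs2 speeds the shut-off of G-protein signalling. MacroH2A replaces H2A in nucleosomes over broad regions and is mostly associated with low transcription.

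Promoter sequences are shown for 6 members, 5 starts that carry activity elements and 1 (Inhba) that carries none, so that the elements can be read beside the values. RefSeq promoter sequences (GRCm38.p6, the build of mm10) were held for 8 of the 10 genes and 15 starts, 7 of them of Bdnf. In the 250 bases before each start, 3 motifs were searched on both strands: the cAMP response element (CRE, TGACGTCA, which reads the same on both strands), its half-site (TGACG, or CGTCA on the other strand, present within each full CRE) and the core of the element that NPAS4 binds (TCGTG, or CACGA on the other strand). Of 32851 promoters in the same reference, 1.5% held the full CRE, 17.8% the half-site and 13.3% the NPAS4 core. Capitals in the lines that follow mark every match. Npas4 is shown for 30 bases at chr19:4990128-4990157 (minus strand) and Scg2 for 30 bases at chr1:79440076-79440105 (minus strand), both inside an exon annotated by GENCODE upstream of the RefSeq start. The others lie outside annotated exons: Bdnf start 3 at chr2:109692186-109692435, Homer1 start 1 at chr13:93303507-93303756, Inhba at chr13:16011601-16011850 and Pcsk1 at chr13:75089607-75089825 (all plus strand).
Npas4: cgttcgaCGTCAcgggaTGACGtcggaagt
Scg2: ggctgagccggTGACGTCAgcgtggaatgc
Pcsk1: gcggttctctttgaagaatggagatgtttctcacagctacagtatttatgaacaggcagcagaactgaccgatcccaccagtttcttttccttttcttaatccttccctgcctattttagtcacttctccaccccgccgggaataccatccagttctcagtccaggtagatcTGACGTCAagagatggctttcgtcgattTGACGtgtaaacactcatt
Homer1 start 1: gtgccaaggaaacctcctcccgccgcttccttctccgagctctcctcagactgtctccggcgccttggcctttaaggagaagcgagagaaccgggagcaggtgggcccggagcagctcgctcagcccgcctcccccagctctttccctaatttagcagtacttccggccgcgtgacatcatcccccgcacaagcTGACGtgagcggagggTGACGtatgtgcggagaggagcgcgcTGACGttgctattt
Bdnf start 3: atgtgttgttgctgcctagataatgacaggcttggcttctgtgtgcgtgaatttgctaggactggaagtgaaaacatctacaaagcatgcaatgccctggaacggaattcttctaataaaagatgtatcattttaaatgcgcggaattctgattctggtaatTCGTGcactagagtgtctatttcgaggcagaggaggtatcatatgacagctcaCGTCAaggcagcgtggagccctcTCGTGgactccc
Inhba: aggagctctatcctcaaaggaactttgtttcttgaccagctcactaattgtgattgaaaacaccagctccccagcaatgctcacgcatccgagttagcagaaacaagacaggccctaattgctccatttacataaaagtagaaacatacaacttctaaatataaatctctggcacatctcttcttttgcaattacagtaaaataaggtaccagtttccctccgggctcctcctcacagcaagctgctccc
Scg2 and Pcsk1 held a full CRE, 68 and 78 bases before the start. Npas4 held 2 half-sites, 1 on each strand, and Homer1 start 1 held 3 half-sites. Bdnf start 3 held 1 half-site and 2 NPAS4 cores, while Inhba, the gene with the largest fold changes below, held none of the 3 motifs. Of the starts not printed, Bdnf start 1 held 2 NPAS4 cores and Rgs2 held 2 half-sites and 2 cores, while Ntrk2, Homer1 start 2 and 5 of the 7 Bdnf starts held none of the 3 motifs. In all, 8 of the 15 starts held none. A match of letters is a description and does not show binding.

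Counts per library ranged from 9.95 to 18.8 M (M, the mega prefix) in the depletion experiment, from 81.4 to 92.2 M in the training experiment and from 48.8 to 58.7 M in intact mice. Values are given as CPM, counts per M of the size of their library. That size was adjusted by edgeR's TMM scaling and is not the raw total. Counts of the training experiment were taken over whole transcripts with introns, so its CPM were not set against those of the others. All counts were per gene, so the short form of Homer1 and the separate starts of Bdnf were not read apart. The targeted genes were read first as a check of the labels. In the depletion experiment H2afy lay between 52.9 and 60.9 CPM in shScr and between 39.3 and 45.1 in shH2afy, and H2afy2 lay between 18.3 and 19.0 CPM in shScr and between 7.59 and 13.3 in shH2afy2. In the training experiment H2afy was not lower in the libraries labelled shH2afy (87.1 to 88.8 CPM untrained and 88.5 to 99.5 trained) than in shScr (78.3 to 82.2 and 80.4 to 86.7). Directions drawn from that experiment therefore rest on the labels. Markers of other cells moved with the shH2afy virus in both experiments. In depletion the summed level of 14 microglia and macrophage markers ranged from 274 to 443 CPM in shScr, 2051 to 6084 in shH2afy and 439 to 1599 in shH2afy2, that of 14 reactive astrocyte markers from 343 to 760, 5199 to 6816 and 697 to 1467, and that of 10 CA1 pyramidal markers from 1363 to 3050, 646 to 974 and 1696 to 2223. Over 14 inhibitory neuron markers the sum was lower in every shH2afy mouse (1161 to 1315 CPM) than in shScr (2184 to 2286), and 7 of the 14 passed as lower. The 10 dentate granule neuron markers overlapped (162 to 642 CPM in shScr and 279 to 792 in shH2afy), with 1 of 10 passing as higher and a median log2 fold change of 0.70. In the training experiment, over untrained and trained mice together, microglia and macrophage markers ranged from 248 to 599 CPM in shScr and from 1469 to 2447 in the libraries labelled shH2afy, reactive astrocyte markers from 325 to 719 and from 2021 to 2530, CA1 pyramidal markers from 949 to 1520 and from 337 to 570, and inhibitory neuron markers from 671 to 868 and from 551 to 599. None of these markers was at 0 throughout. Mitochondrial genes took 3.87 to 6.25% of counts in shScr of the depletion experiment, 2.71 to 3.38% in shH2afy and 3.47 to 4.26% in shH2afy2, and shScr replicate 3, at 6.25%, was also the library with the fewest counts. The part of these markers and of the mitochondrial share in the values of the 10 genes was not tested, and in bulk tissue fewer cells of a type and less RNA per cell cannot be told apart.

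Per kilobase of exon, the 10 genes spanned a wide range in intact untrained mice. Vgf was highest at 132 ± 7.06 CPM per kb (SD, n = 3), then Scg2 at 90.2 ± 7.88 and Ntrk2 at 38.8 ± 0.94. Rgs2 (12.9 ± 1.21), Homer1 (12.5 ± 1.15) and Nptx2 (11.4 ± 2.49) followed and did not differ beyond their spread, as was true of Bdnf (6.26 ± 0.81) and Pcsk1 (5.75 ± 1.24). Npas4 stood at 3.12 ± 0.96 CPM per kb, and Inhba was lowest at 0.40 ± 0.14. In shScr mice of the depletion experiment Scg2 (105 ± 19.1) and Vgf (101 ± 9.70) did not differ beyond their spread, and Npas4 (2.17 ± 2.29) and Inhba (1.99 ± 0.39) were both lowest.

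Depletion of mH2A1 at rest moved 3 of the 10 genes past the thresholds of that experiment (more than 2-fold at an adjusted p below 0.01, by edgeR's quasi-likelihood test with Benjamini-Hochberg adjustment over all genes). Inhba, Nptx2 and Scg2 rose, and none of the 10 fell, where 11.7% of 16179 genes tested passed, 10.5% as higher and 1.2% as lower. An unadjusted p under 0.05 was reached by 6 of the 10 and by 43.9% of all genes. The groups did not overlap for 6 of the 10 (Inhba, Nptx2, Scg2 and Bdnf higher, Homer1 and Ntrk2 lower), against 50.1% of all genes. The median log2 fold change of the 10 was 0.76, and that of all genes was 0.01. Without 1 library the number past the thresholds ranged from 1 to 3 and was 1 without shH2afy replicate 1, without shH2afy replicate 2 and without shScr replicate 3. Inhba passed in every one of those fits.

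**Figure D1:**
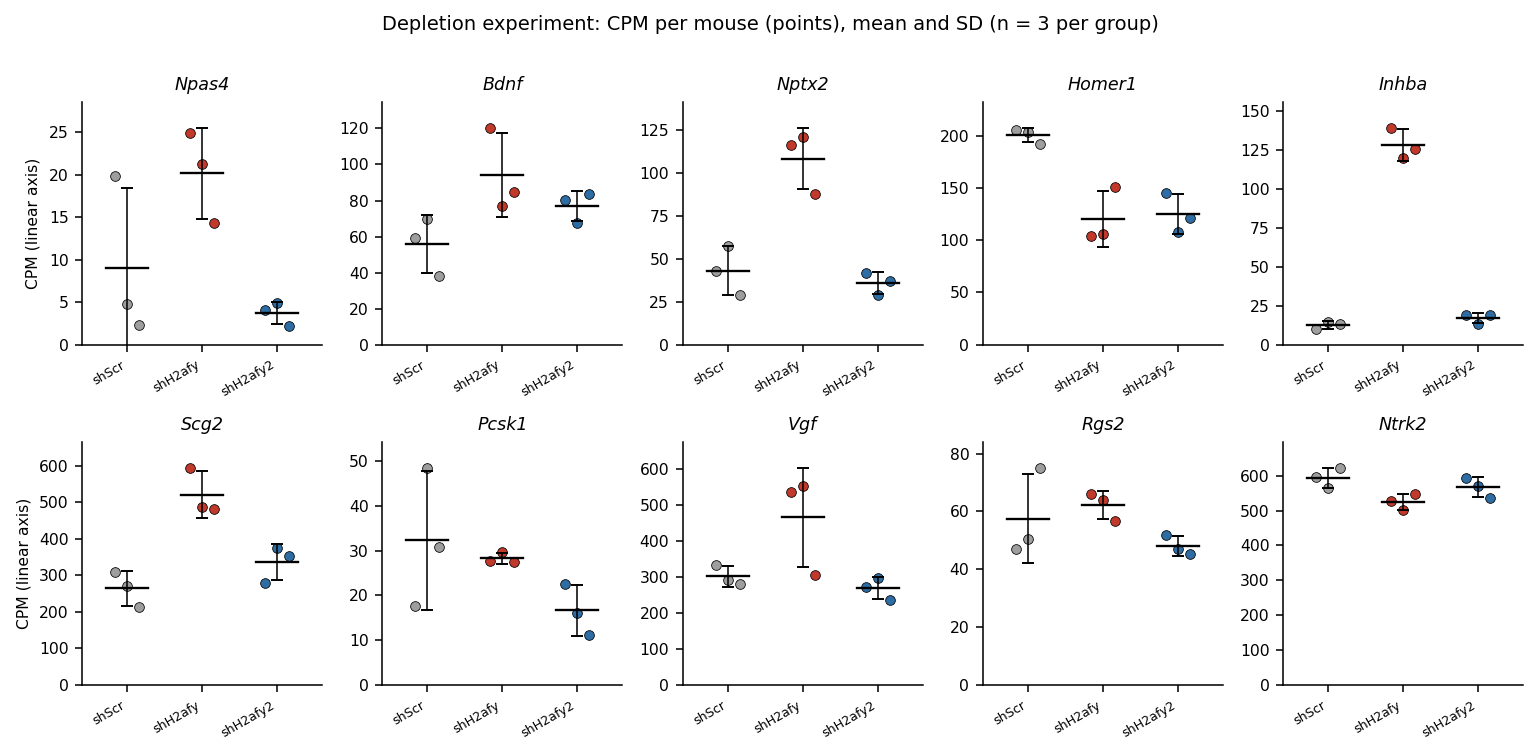
CPM of the 10 genes in the depletion experiment, with 1 point per mouse, a bar at the group mean and lines for the SD (n = 3), on linear axes that start at 0. The 3 shH2afy mice sit between 120 and 139 CPM for Inhba, above every shScr mouse, while 1 shScr mouse sits within the shH2afy range for Npas4.

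Inhba, which encodes the activin A subunit, showed the largest change. Its CPM was 9.97, 14.7 and 13.6 in shScr, 139, 119.6 and 126 in shH2afy, and 19.0, 13.4 and 18.9 in shH2afy2. The shH2afy mice stood far above both other groups, which overlapped each other. The log2 fold change of shH2afy against shScr was 3.40 ± 0.17 (SE, adjusted p = 5.88e-05, edgeR), and that of shH2afy against shH2afy2 was 2.91 ± 0.16 (adjusted p = 0.00113, edgeR). Against shScr, shH2afy2 gave 0.43 ± 0.20 (adjusted p = 0.28, edgeR).

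Activin signals through type I and type II receptors to SMAD proteins and is bound by follistatin (Fst). Among 14 tested genes of that pathway, 0 passed in shH2afy against shScr by edgeR and 0 by DESeq2, with 4 at an unadjusted p under 0.05. The median of that list was -0.14, against 0.01 over all genes. Fst had a log2 fold change of 2.10 ± 0.78 (adjusted p = 0.0776, edgeR). Against shH2afy2, Fst passed at 2.08 ± 0.41 (adjusted p = 0.00839, edgeR).

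Nptx2, the secreted pentraxin, stood at 42.9, 57.8 and 29.0 CPM in shScr, 117, 121 and 87.8 in shH2afy, and 41.9, 28.8 and 37.2 in shH2afy2. Every shH2afy mouse was above every mouse of the other 2 groups. It rose by a log2 fold change of 1.39 ± 0.25 against shScr (adjusted p = 0.00541, edgeR) and 1.59 ± 0.18 against shH2afy2 (adjusted p = 0.00203, edgeR). The call against shScr was lost without any one of shH2afy replicates 1 and 2 and shScr replicates 1 and 3, where the log2 fold change was between 1.11 and 1.33. Of 7 genes for AMPA receptors and other pentraxin partners, 1 rose and 0 fell in shH2afy against shScr, with a median of -0.56. That gene was Adam17 (1.90 ± 0.19, adjusted p = 0.000511, edgeR), a protease that sheds the pentraxin receptor and many other surface proteins. The receptor subunit Gria4 gave -0.80 ± 0.12 (adjusted p = 0.00255, edgeR), under the fold threshold.

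Of the vesicle genes Scg2 passed, and Vgf and Pcsk1 did not. Scg2 was at 309.6, 269.7 and 214 CPM in shScr, 595, 486 and 482 in shH2afy, and 280.2, 375 and 354 in shH2afy2. All 3 shH2afy mice were above the others, and the rise against shScr was 1.05 ± 0.17 on the log2 scale (adjusted p = 0.00353, edgeR). The call was lost with no filter on low counts (log2 fold change 0.997) and without shH2afy replicate 1 or 2 or shScr replicate 2 or 3 (0.85 to 1.09). Against shH2afy2, Scg2 gave 0.63 ± 0.15 (adjusted p = 0.0182, edgeR), which did not pass.

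Vgf was at 334, 290.3 and 279.6 CPM in shScr, 537, 554 and 306 in shH2afy, and 273, 296 and 236 in shH2afy2. Replicate 3 of shH2afy fell within the shScr range, and the log2 fold change against shScr was 0.70 ± 0.23 (adjusted p = 0.0535, edgeR). Pcsk1, the convertase, was at 17.6, 48.6 and 30.8 CPM in shScr, 27.8, 29.7 and 27.5 in shH2afy, and 22.6, 16.1 and 11.2 in shH2afy2. The spread within shScr covered the whole shH2afy group (log2 fold change -0.13 ± 0.32, adjusted p = 0.788, edgeR). Pcsk1 gave -0.96 ± 0.39 in shH2afy2 against shScr (adjusted p = 0.221, edgeR). Of 13 other genes for dense-core granule proteins and their processing, 0 passed the thresholds of edgeR in shH2afy against shScr, with 11 at an unadjusted p under 0.05 and 0 called by DESeq2. Their median was -0.64, with 12 of 13 below 0. Pcsk1n, which encodes an inhibitor of the Pcsk1 enzyme, gave -0.84 ± 0.11 (adjusted p = 0.00176, edgeR), and Scg5, a chaperone of the related convertase, gave -0.87 ± 0.14 (adjusted p = 0.00315, edgeR), both short of the fold threshold.

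Npas4 passed between the 2 depletions and did not pass against shScr. Its CPM was 19.8, 4.74 and 2.35 in shScr, 24.9, 21.3 and 14.3 in shH2afy, and 4.10, 4.85 and 2.26 in shH2afy2. Replicate 1 of shScr stood about as high as the shH2afy mice, so the groups overlapped. The log2 fold change of shH2afy against shScr was 1.22 ± 0.66 (adjusted p = 0.195, edgeR). Without shScr replicate 1 it was 2.47 and passed, and it also passed with no filter on low counts (1.13). In shH2afy against shH2afy2 no mouse overlapped and the log2 fold change was 2.43 ± 0.32 (adjusted p = 0.0028, edgeR). That call was lost without shH2afy2 replicate 1 or 3 or shH2afy replicate 1, at 2.13 to 2.45. With shH2afy replicate 1 left out, the number of genes called in all was 2, against 1557 with all 6 libraries.

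Of 29 other immediate early genes tested, 5 rose and 3 fell in shH2afy against shScr, with a median of 0.11. The 4 with the smallest adjusted p were Atf3 (5.45 ± 0.27, adjusted p = 5.88e-05, edgeR), Zfp36 (3.31 ± 0.32), Maff (2.65 ± 0.33) and Csrnp1 (1.24 ± 0.19). Atf3 and Maff are stress-responsive bZIP factors and Zfp36 destabilises cytokine mRNA. Among 21 genes for NPAS4 partners and the signalling that leads to activity-regulated transcription, 0 passed by edgeR and 0 by DESeq2, with 13 at an unadjusted p under 0.05. Their median was -0.50. The deacetylase Hdac4 was at -0.51 ± 0.10 (adjusted p = 0.00665, edgeR), short of the fold threshold.

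Bdnf and its receptor did not pass. Bdnf stood at 59.3, 69.7 and 38.3 CPM in shScr, 120.4, 77.0 and 84.5 in shH2afy, and 80.1, 67.8 and 83.7 in shH2afy2. Every shH2afy mouse was above every shScr mouse, with replicate 1 highest, at a log2 fold change of 0.82 ± 0.25 (adjusted p = 0.0408, edgeR). Ntrk2 was at 597, 564 and 621 CPM in shScr, 527, 502 and 547 in shH2afy, and 594, 571 and 537 in shH2afy2. Its shH2afy mice were all below shScr, yet the difference was small (-0.11 ± 0.11, adjusted p = 0.482, edgeR). Of 14 other tested genes for neurotrophin ligands, receptors and processing, 1 rose and 0 fell, with a median of -0.17. The one that rose was Furin (1.11 ± 0.15, adjusted p = 0.00164, edgeR), which cleaves proneurotrophins among other precursors.

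Homer1, a scaffold of the postsynaptic density, lay below shScr in both depletions without passing. Its CPM was 205, 204 and 192 in shScr, 104, 106 and 151 in shH2afy, and 146, 108 and 121 in shH2afy2. No mouse of either depletion reached the shScr range. The log2 fold change was -0.68 ± 0.16 with shH2afy (adjusted p = 0.0149, edgeR) and -0.68 ± 0.12 with shH2afy2 (adjusted p = 0.0739, edgeR), and neither passed. With DESeq2 the adjusted p was 0.000719 and 0.000119, and both changes were still short of the fold threshold. The 2 comparisons share the shScr mice. The direct difference between the depletions was -0.06, with a 95% interval of -0.41 to 0.30. Of 15 other genes of Homer and metabotropic glutamate receptor signalling, 0 passed in shH2afy against shScr by edgeR and 4 by DESeq2, and 10 were at an unadjusted p under 0.05, with a median of -0.78. The scaffold gene Dlgap3 gave -0.98 ± 0.16 (adjusted p = 0.00366, edgeR).

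Rgs2 was at 46.8, 50.3 and 75.1 CPM in shScr, 66.1, 64.1 and 56.7 in shH2afy, and 51.7, 47.0 and 45.2 in shH2afy2. Replicate 3 of shScr was the highest of all 9 mice and the groups overlapped (0.18 ± 0.19, adjusted p = 0.496, edgeR). Among 8 tested R4 RGS genes and G-protein partners, Gnai2 rose in shH2afy against shScr (1.04 ± 0.17, adjusted p = 0.00371, edgeR) and none fell, with a median of -0.0017.

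Depletion of mH2A2 alone left no gene past the thresholds by edgeR, and that count depended on the tool. By edgeR 0 of the 10 passed, and 0.0% of 15609 genes did. At an unadjusted p under 0.05 there were 2 of the 10, Homer1 and Pcsk1, both lower, against 20.7% of all genes. DESeq2, the tool that the study used, called 0 of the 10 and 122 genes in all. Only Homer1 of the 10 had groups that did not overlap, against 26.0% of all genes. In the direct comparison of shH2afy with shH2afy2, 3 of the 10 rose (Inhba, Npas4 and Nptx2) and 0 fell, where 9.56% of 16294 genes passed, 7.96% as higher and 1.6% as lower. The groups of 7 did not overlap in that comparison, against 50.8% of all genes. Without 1 library the count of 3 ranged from 0 to 4. It was 0 without shH2afy replicate 1, and 1 without shH2afy2 replicate 1 and without shH2afy2 replicate 3.

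In the training experiment the virus contrast was read in untrained and in trained mice. In untrained mice labelled shH2afy, Inhba and Rgs2 rose and Homer1 and Ntrk2 fell, 2 and 2 of the 10, by more than 1.2-fold at an adjusted p below 0.05 with edgeR. Of 15799 genes tested, 25.2% passed as higher and 18.5% as lower. In trained mice the same 4 genes passed in the same directions, where 22.8% of 15703 genes passed as higher and 18.4% as lower. In each contrast the groups of those 4 did not overlap and the groups of the other 6 did, against 59.9% and 58.6% of all genes without overlap. The median log2 fold change of the 10 was 0.31 untrained and 0.12 trained, and that of all genes was 0.0014 and -0.010.

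**Figure D2:**
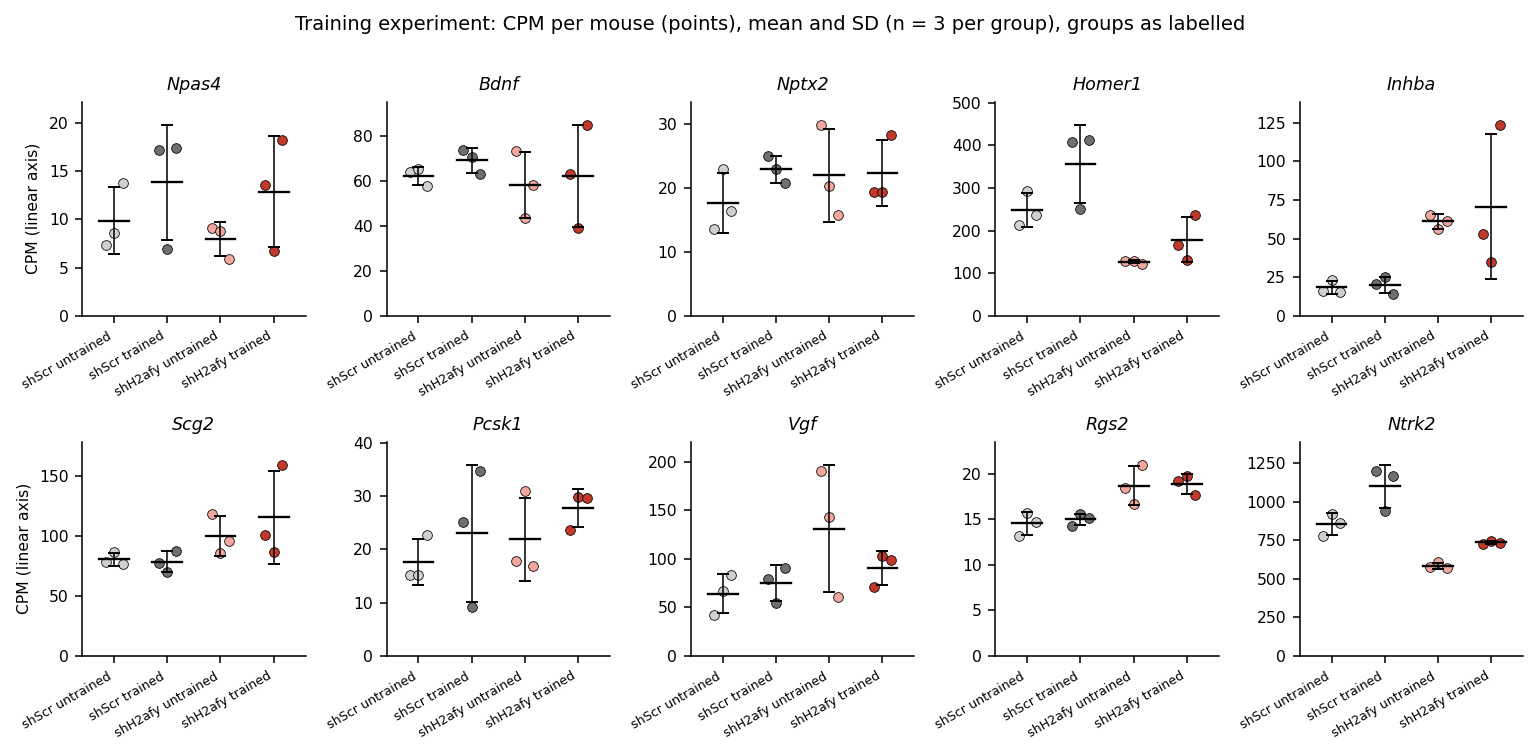
CPM of the 10 genes in the 4 groups of the training experiment, with 1 point per mouse, a bar at the group mean and lines for the SD (n = 3), on linear axes that start at 0. For Ntrk2 the 6 mice labelled shH2afy lie between 569 and 744 CPM and the 6 shScr mice between 776 and 1196, and for Npas4 all 4 groups overlap.

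Homer1 was at 214, 292 and 237 CPM in untrained shScr mice and 129.7, 129 and 122 in untrained mice labelled shH2afy. After training it was at 407, 252 and 413 in shScr and 167, 132 and 236 in those labelled shH2afy. The virus groups were apart at both times, with replicate 2 of trained shScr close to the highest trained mouse labelled shH2afy. Homer1 fell by a fitted log2 fold change of -0.96 ± 0.12 untrained (adjusted p = 0.000608, edgeR) and -1.001 ± 0.27 trained (adjusted p = 0.0239, edgeR). The trained call was lost without shH2afy replicate 1 or 2 or shScr replicate 1 or 3, at -0.96 to -0.83. Of 15 other Homer and metabotropic receptor genes, 0 rose and 8 fell untrained, and 0 rose and 10 fell trained. Homer2 had the largest named change (-1.90 ± 0.21 untrained, adjusted p = 0.000454, edgeR), and the receptor Grm5 fell too (-1.05 ± 0.11 untrained, adjusted p = 0.00031, edgeR).

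Ntrk2 was at 776, 919 and 863 CPM in untrained shScr mice and at 574, 606 and 569 in untrained mice labelled shH2afy. Trained, it was at 1196, 939.5 and 1163 in shScr and at 728, 744 and 732 in those labelled shH2afy. The receptor fell with the shH2afy label, with no overlap in either state, by -0.55 ± 0.09 untrained (adjusted p = 0.00206, edgeR) and -0.58 ± 0.11 trained (adjusted p = 0.0061, edgeR). Its ligand Bdnf overlapped throughout, at 64.2, 65.3 and 57.9 CPM in untrained shScr, 73.3, 43.8 and 58.3 in untrained mice labelled shH2afy, 73.7, 70.8 and 63.2 in trained shScr, and 63.2, 39.4 and 84.9 in trained mice labelled shH2afy. The Bdnf spread was wider in both groups labelled shH2afy than in both shScr groups (SD 14.8 and 22.8 against 4.00 and 5.41 CPM). Among 14 other neurotrophin genes, 3 rose and 7 fell untrained, and 2 rose and 5 fell trained. Furin rose (0.95 ± 0.08 untrained, adjusted p = 0.000202, edgeR), while the sorting receptor Sort1 fell (-0.94 ± 0.09, adjusted p = 0.000287, edgeR).

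Inhba was at 16.4, 23.3 and 15.6 CPM in untrained shScr and 65.6, 56.4 and 61.7 in untrained mice labelled shH2afy, a rise of 1.73 ± 0.16 (adjusted p = 0.000213, edgeR). Trained, it was at 20.8, 25.0 and 14.2 in shScr and 53.0, 35.1 and 124 in those labelled shH2afy, a rise of 1.82 ± 0.48 (adjusted p = 0.0232, edgeR). Replicate 3 of the trained mice labelled shH2afy stood well above the other 2, and the trained call was lost without shScr replicate 1 or 3 and with the replicate number as a block (1.63). Of 15 other activin pathway genes, 2 rose and 0 fell untrained, Fst (1.47 ± 0.22, adjusted p = 0.00166, edgeR) and the inhibitory Smad7 (0.29 ± 0.06, adjusted p = 0.00822, edgeR). Trained, 1 rose and 2 fell.

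Rgs2 was at 13.2, 15.7 and 14.7 CPM in untrained shScr and 18.4, 16.7 and 21.0 in untrained mice labelled shH2afy. Trained, it was at 14.3, 15.5 and 15.1 in shScr and 19.2, 19.8 and 17.6 in those labelled shH2afy. The difference was small, 0.37 ± 0.11 untrained (adjusted p = 0.0287, edgeR) and 0.33 ± 0.07 trained (adjusted p = 0.0121, edgeR), and no mouse crossed between groups. The untrained call was lost with the replicate block (0.36) and without shH2afy replicate 3 or shScr replicate 1 or 3, and the trained one without shH2afy replicate 1 (0.32). Of 9 other R4 RGS and partner genes, 4 rose and 1 fell untrained, and 5 rose and 1 fell trained. Gnai2 rose (1.03 ± 0.07 untrained, adjusted p = 0.000116, edgeR), and Gnai1 fell (-0.73 ± 0.07, adjusted p = 0.000321, edgeR).

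The vesicle genes overlapped between the viruses. Scg2 was at 78.7, 86.4 and 76.3 CPM in untrained shScr, 119, 85.9 and 95.8 in untrained mice labelled shH2afy, 77.9, 69.9 and 87.3 in trained shScr, and 101, 86.5 and 159.5 in trained mice labelled shH2afy. Its log2 fold change was 0.32 ± 0.12 untrained (adjusted p = 0.0679, edgeR) and 0.56 ± 0.23 trained (adjusted p = 0.0892, edgeR), and the trained value passed by DESeq2 (0.57). Vgf was at 42.7, 66.5 and 83.3 CPM in untrained shScr, 190.3, 143 and 60.2 in untrained mice labelled shH2afy, 79.5, 55.0 and 90.6 in trained shScr, and 71.0, 103 and 98.5 in trained mice labelled shH2afy. Replicate 3 of untrained mice labelled shH2afy sat inside the shScr range, and the untrained change was 1.03 ± 0.42 (adjusted p = 0.0776, edgeR). Without that mouse it was 1.38 and passed. Pcsk1 was at 15.2, 15.1 and 22.7 CPM in untrained shScr, 17.8, 30.9 and 16.9 in untrained mice labelled shH2afy, 25.2, 9.21 and 34.8 in trained shScr, and 23.7, 29.9 and 29.7 in trained mice labelled shH2afy. The lowest and the highest of these 12 values were both in trained shScr. Of 13 other granule genes, 0 rose and 7 fell untrained, and 0 rose and 10 fell trained, with medians of -0.52 and -0.68. Chgb, a granin like Scg2, fell in trained mice (-0.90 ± 0.10, adjusted p = 0.00135, edgeR).

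Nptx2, which rose with shH2afy in the depletion experiment, did not pass here. It was at 13.7, 22.9 and 16.4 CPM in untrained shScr, 29.9, 20.3 and 15.7 in untrained mice labelled shH2afy, 25.0, 23.0 and 20.8 in trained shScr, and 19.4, 19.4 and 28.3 in trained mice labelled shH2afy. Fitted log2 fold changes were 0.32 ± 0.27 untrained (adjusted p = 0.366, edgeR) and -0.04 ± 0.17 trained (adjusted p = 0.875, edgeR). The AMPA receptor genes Gria1 (-1.25 ± 0.20), Gria2 (-1.05 ± 0.12) and Gria3 (-0.97 ± 0.13) fell untrained, among 1 gene higher and 3 lower of 7 untrained and 1 higher and 5 lower trained. Npas4 also overlapped, at 7.32, 8.55 and 13.8 CPM in untrained shScr, 9.11, 8.77 and 5.91 in untrained mice labelled shH2afy, 17.2, 6.92 and 17.4 in trained shScr, and 13.6, 6.77 and 18.2 in trained mice labelled shH2afy. Its virus contrast was -0.32 ± 0.27 untrained (adjusted p = 0.362, edgeR) and -0.10 ± 0.46 trained (adjusted p = 0.869, edgeR).

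Training itself, 1 h before collection, moved none of the 10 past the thresholds by edgeR in any of 3 comparisons. In shScr mice 0 of the 10 passed by edgeR and 0.0% of 15424 genes did. There, 2 of the 10 had an unadjusted p under 0.05, Ntrk2 (0.35 ± 0.11) and Homer1 (0.51 ± 0.20), against 8.96% of all genes, and DESeq2 called 0 of the 10 and 212 genes in all. The groups of Ntrk2 alone did not overlap, against 14.9% of all genes. In mice labelled shH2afy, 0 of the 10 and 0.0% of 15866 genes passed by edgeR. The same 2 genes had an unadjusted p under 0.05, Ntrk2 (0.34 ± 0.08) and Homer1 (0.50 ± 0.20), against 3.86% of all genes, and both had groups without overlap, against 9.45% of all genes. DESeq2 called Ntrk2 there (0.35) and 47 genes in all.

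The change with training was compared between viruses in one model of all 12 libraries. By edgeR 0 of the 10 passed an adjusted p under 0.05, 0.0% of 15997 genes did, 0 of the 10 had an unadjusted p under 0.05 against 2.08% of all genes, and DESeq2 called 0. The fitted differences of the 10 ranged from -0.76 for Vgf to 0.25 for Scg2. For Npas4, training gave 0.47 ± 0.39 in shScr and 0.71 ± 0.36 in mice labelled shH2afy, where trained replicate 2 of each virus lay within or below the range of the untrained mice. For Bdnf it gave 0.14 ± 0.08 and 0.10 ± 0.30. These contrasts share no mice with each other, but each shares its mice with the virus contrasts above.

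Immediate early genes other than Npas4 gave a reference for the response. In shScr, 0 of 29 passed by edgeR, but all 29 lay above 0 with a median of 0.66. There, 16 were at an unadjusted p under 0.05, against 8.96% of all genes, and 11 passed by DESeq2. In mice labelled shH2afy the median was 0.11, 5 were at an unadjusted p under 0.05, against 3.86% of all genes, and 2 passed by DESeq2. None of 29 passed the interaction by edgeR or DESeq2, while 8 were at an unadjusted p under 0.05, against 2.08% of all genes.

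**Figure D3:**
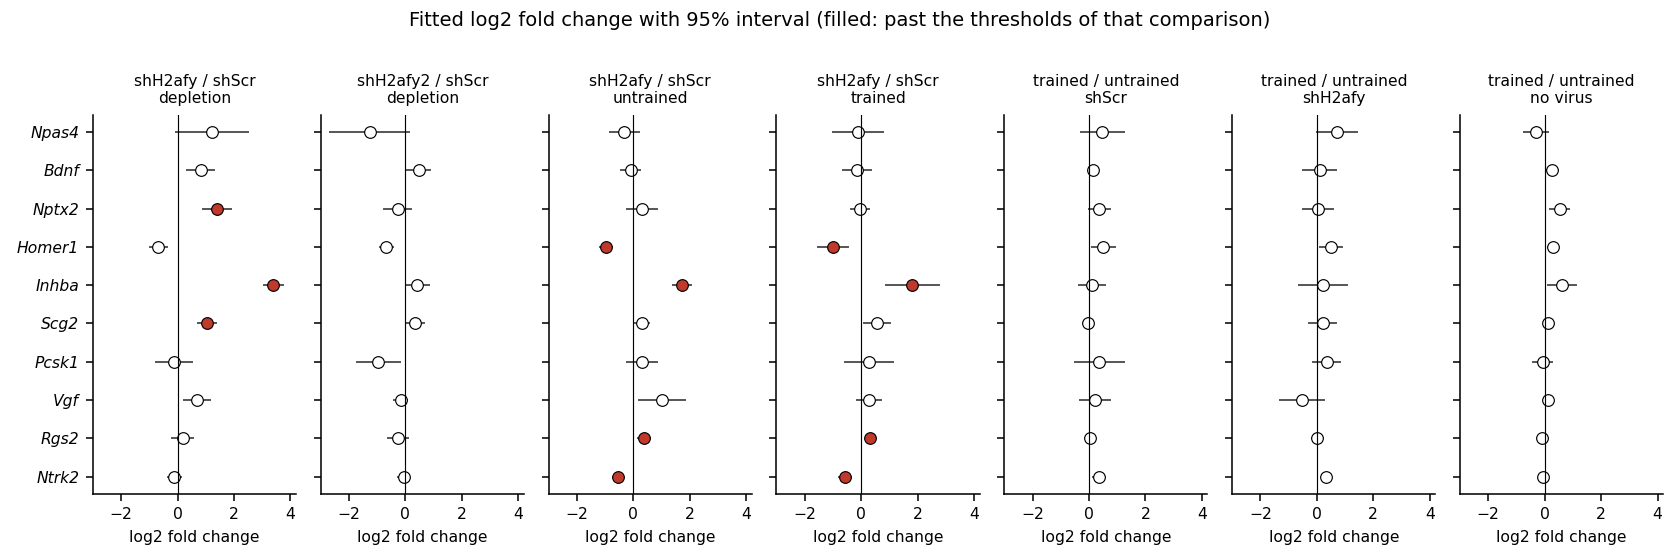
Fitted log2 fold change (x axis) with its 95% interval for each of the 10 genes in 7 comparisons, where filled points passed the thresholds of that comparison. Filled points stand only in the panels of shH2afy against shScr, and Inhba is filled in all 3 of those.

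In intact mice the training contrast rested on 3 untrained and 2 trained samples. By edgeR 0 of the 10 passed an adjusted p under 0.01, where 0.0959% of 15641 genes did, 15 in all. At an unadjusted p under 0.05 there were 4 of the 10, Homer1, Nptx2, Bdnf and Inhba, all higher, against 19.9% of all genes. The groups of 5 did not overlap, those 4 higher and Ntrk2 lower, against 39.8% of all genes. DESeq2 called 0 of the 10 and 472 genes in all. Summed dentate granule neuron markers were at 161 to 250 CPM untrained and 222 to 318 trained, and CA2 and CA3 pyramidal markers at 504 to 694 and 678 to 773. Both sets overlapped, with the trained mice toward the upper end, and their part in the values was not tested.

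**Figure D4:**
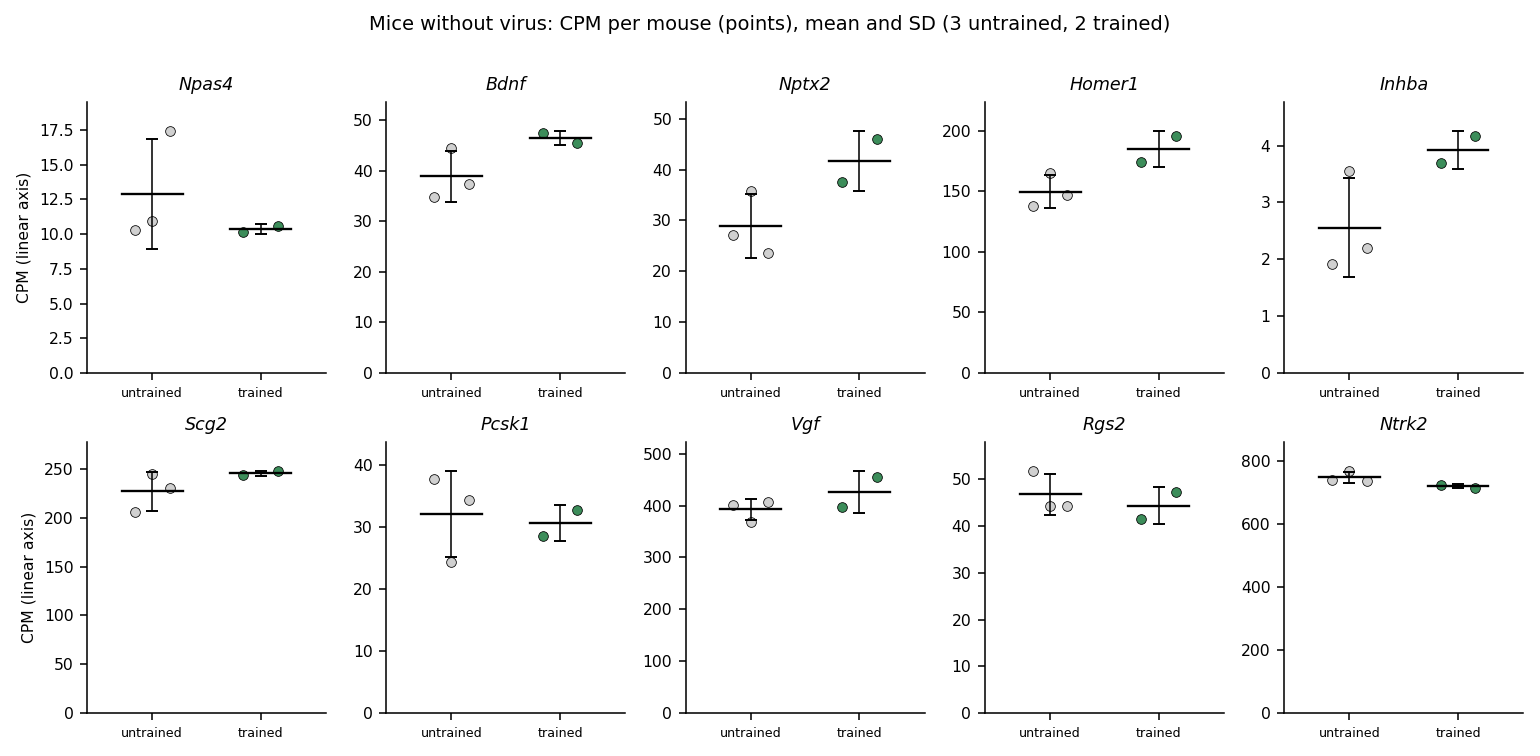
CPM of the 10 genes in intact mice, with 1 point per mouse, a bar at the group mean and lines for the SD (3 untrained, 2 trained), on linear axes that start at 0. Homer1 lies between 137 and 165 CPM untrained and at 174 and 195 trained, and for Npas4 untrained replicate 3 at 17.5 CPM is the highest of the 5.

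Homer1 was at 137, 165 and 147 CPM untrained and 174 and 195 trained (0.30 ± 0.09, adjusted p = 0.136, edgeR). Nptx2 was at 27.1, 35.9 and 23.6 CPM untrained and 37.6 and 46.0 trained (0.53 ± 0.17, adjusted p = 0.161, edgeR). Bdnf was at 34.8, 44.6 and 37.4 untrained and 47.5 and 45.6 trained (0.26 ± 0.10, adjusted p = 0.226, edgeR). For all 3 the trained mice were above the untrained, with replicate 2 the highest untrained mouse each time. Without untrained replicate 2, Nptx2 passed, at 0.71. Inhba was at 1.92, 3.55 and 2.20 CPM untrained and 3.69 and 4.16 trained (0.62 ± 0.25, adjusted p = 0.238, edgeR).

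Npas4 was not higher 1 h after training in intact mice. It was at 10.3, 11.0 and 17.5 CPM untrained and 10.1 and 10.6 trained, so the groups overlapped with untrained replicate 3 highest (-0.31 ± 0.22, adjusted p = 0.463, edgeR). In the same libraries 10 of 30 other immediate early genes rose and 0 fell, where 0.0959% of all genes passed in either direction. Their median was 0.80, with all 30 above 0. Nr4a1 (1.49 ± 0.06, adjusted p = 0.000512, edgeR), Egr2 (3.40 ± 0.16, adjusted p = 0.000583, edgeR), Per1 (0.98 ± 0.05) and Egr1 (1.03 ± 0.05) had the smallest adjusted p. The interval of the Npas4 change, -0.75 to 0.13, lay below the median of that list, which was chosen with earlier results known.

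The other members had small fitted changes. Vgf was at 401, 369 and 408 CPM untrained and 397 and 455 trained, and Scg2 at 206, 245 and 231 untrained and 244 and 248 trained. Pcsk1 was at 37.8, 24.4 and 34.4 CPM untrained and 28.6 and 32.7 trained. Rgs2 was at 51.9, 44.3 and 44.2 untrained and 41.5 and 47.2 trained, and Ntrk2 at 739, 769 and 737 untrained and 725 and 716 trained. All of these except Ntrk2 overlapped, with log2 fold changes from -0.08 to 0.12. Of the gene lists around them, 1 of 23 other later activity genes rose (Tiparp, 0.97 ± 0.06, adjusted p = 0.002, edgeR). By edgeR 0 genes passed among the neurotrophin, granule, activin, Homer, AMPA receptor and RGS lists, where 2, 3, 6, 1, 3 and 3 were at an unadjusted p under 0.05 and 1, 0, 0, 0, 1 and 1 passed by DESeq2.

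Genes whose level was most like that of Npas4 and Bdnf were sought over the 12 libraries of the training experiment, by Pearson correlation of log2 CPM among 11401 genes. The closest to Npas4 were Zfp449 (0.89), Cacybp (0.89), Abcf1 (0.88), Ppp1r2 (0.86) and Fbxo28 (0.83), and the closest to Bdnf were Bves (0.91), Xpnpep1 (0.90), Dhx40 (0.90), Pcnx (0.90) and Tanc1 (0.90). Among the 10 genes themselves, Homer1 (0.62) and Pcsk1 (0.59) were nearest to Npas4, while Npas4 and Bdnf correlated at 0.46. The libraries fall into 4 groups and share depth and cell makeup, so these values describe the 12 libraries only.

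Chromatin was read from lists of broad mH2A domains, 1 list for each of 30 ChIP libraries (19 of mH2A1 and 11 of mH2A2), called against input at an FDR under 0.05. Each list held 51899 to 95952 domains over 226 to 646 Mb, with 12.2 to 44.5 M ChIP reads inside them. Each gene was described by the percent of a window of 2 kb either side of its GENCODE start, and of its gene body, that lay inside domains, in mm10. The loci were Npas4 at chr19:4984355-4990316 (minus), Bdnf at chr2:109674700-109727007 (plus), Nptx2 at chr5:144545902-144557478 (plus), Homer1 at chr13:93299635-93405129 (plus), Inhba at chr13:16011851-16031621 (plus), Scg2 at chr1:79434669-79440120 (minus), Pcsk1 at chr13:75089826-75134861 (plus), Vgf at chr5:137026392-137033351 (plus), Rgs2 at chr1:143999338-144004161 (minus) and Ntrk2 at chr13:58806569-59133970 (plus). The mH2A1 antibody of the 30 min series differed from that of the 1 h and 6 h series, so times were not compared with each other. For the 2 untrained mH2A1 libraries of 1 h, the titles name macroH2A1 and the antibody entries of the labels name macroH2A2, and the titles were followed. Absence from a list means no domain past the FDR, not an absence of the histone.

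**Figure D5:**
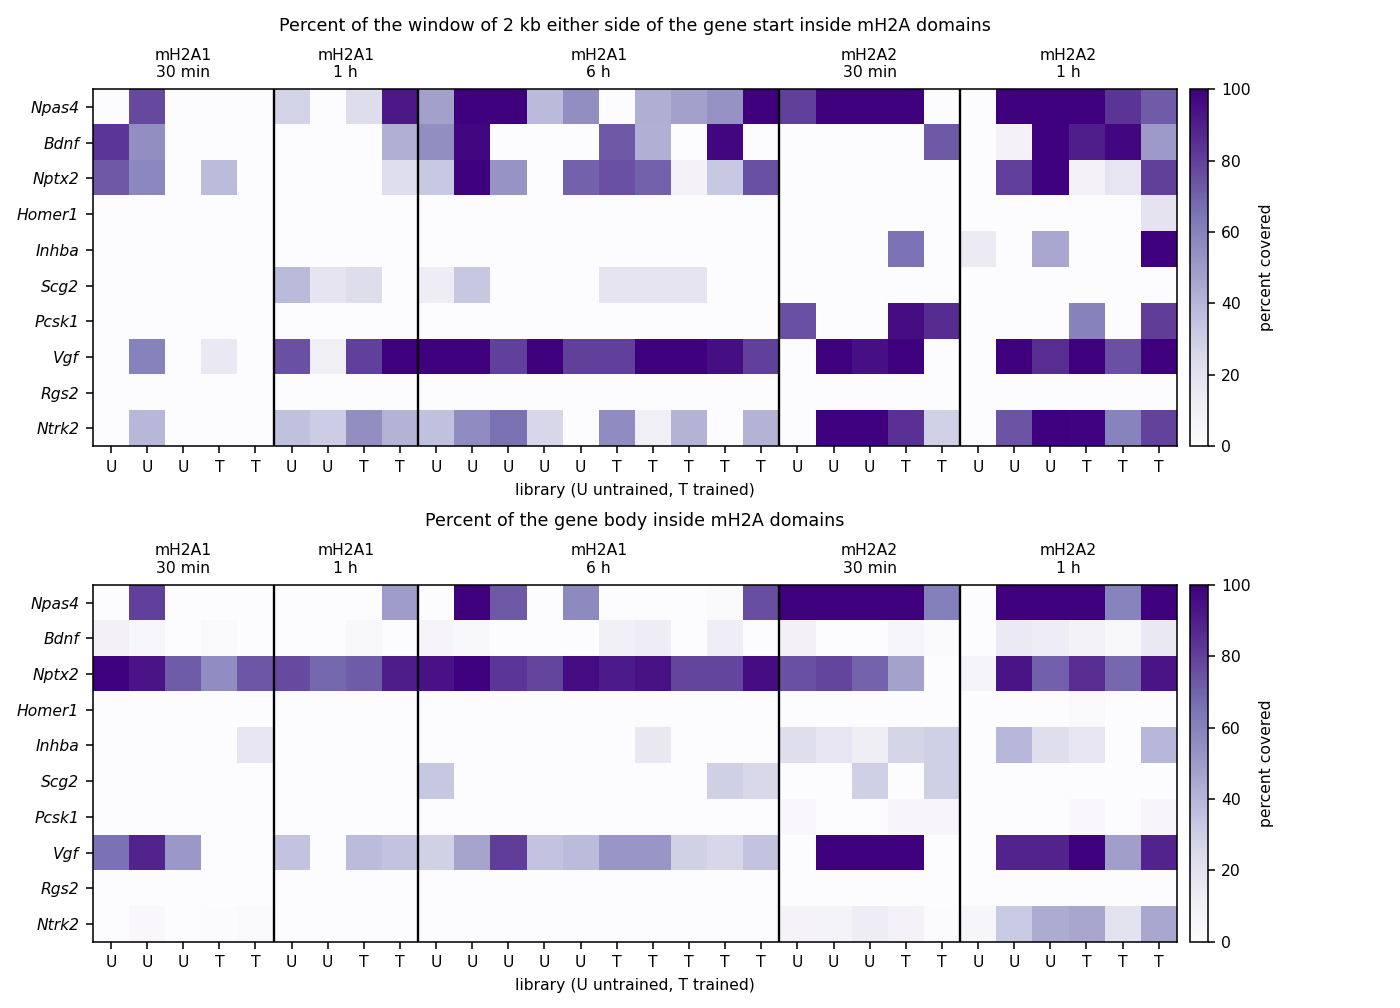
Percent of the window around the gene start (top) and of the gene body (bottom) inside mH2A domains, with 1 column per library, U for untrained and T for trained, and 1 row per gene. Nptx2, Vgf and Npas4 carry domains in most libraries when all series are pooled, and the rows of Rgs2 are empty at 0.

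The 10 loci differed widely over all libraries, untrained and trained together. Over all genes, 19.6% to 48.6% had a domain in their window in a given library. Within a series, 38.0% to 58.7% of all genes had no window coverage in any untrained mouse, and 24.8% to 60.0% no coverage of the body. A locus without domains was thus common among genes. Vgf had a domain in its window in 16 of 19 mH2A1 and 8 of 11 mH2A2 libraries, Npas4 and Ntrk2 each in 13 and 9, and Nptx2 in 13 and 5. By series, the mH2A1 window counts of Vgf, Npas4, Ntrk2 and Nptx2 at 30 min were 2, 1, 1 and 3 of 5. With the other mH2A1 antibody they were 4, 3, 4 and 1 of 4 at 1 h, and 10, 9, 8 and 9 of 10 at 6 h. The Nptx2 window had an mH2A2 domain in 0 of 5 libraries at 30 min and 5 of 6 at 1 h. The Nptx2 gene body held a domain in 19 of 19 mH2A1 and 10 of 11 mH2A2 libraries, at a median of 82.7% and 70.6% covered, and some of those domains were as wide as 123.4 kb. At the other end Rgs2 had a domain in 0 of 30 libraries in window or body, and Homer1 in 0 of 19 mH2A1 and 1 of 11 mH2A2 libraries. The Homer1 window ended at 93301635, before RefSeq start 1, but the promoter printed above also had a domain in 0 of 19 and 1 of 11 libraries.

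Counted over libraries, with no test, the loci differed in how often each variant's domains lay on them. These counts pool times and mH2A1 antibodies, and mH2A2 was not assayed at 6 h. Pcsk1 and Inhba had an mH2A1 domain in their windows in 0 of 19 libraries and an mH2A2 domain in 5 and 4 of 11. Scg2 had a window domain in 0 of 5 libraries of either variant at 30 min, in 3 of 4 mH2A1 and 0 of 6 mH2A2 libraries at 1 h, and in 5 of 10 mH2A1 libraries at 6 h. The Inhba gene body held a domain in 2 of 19 mH2A1 and 9 of 11 mH2A2 libraries, and that of Ntrk2 in 7 and 11. Bdnf had a window domain in 8 of 19 and 6 of 11. Of its 7 RefSeq starts, start 1 lay in a domain in 6 and 5 libraries, start 3, printed above, in 0 and 3, and start 6 in 0 and 0.

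In the 3 untrained mice of the 30 min series both antibodies were used on each mouse. The window of Npas4 was covered by 0%, 77.1% and 0% with mH2A1 and by 80%, 100% and 100% with mH2A2 in mice 1, 2 and 3. Its gene body was covered by 0%, 79.9% and 0% with mH2A1 and by 100% in every mouse with mH2A2. For Npas4, mH2A2 thus covered more than mH2A1 in each of the 3 mice. The Inhba gene body was covered by 0% in each mouse with mH2A1 and by 22.3%, 17.2% and 11.1% with mH2A2. The Bdnf window went the other way in 2 mice, at 82.5%, 55% and 0% with mH2A1 and 0% in each mouse with mH2A2. The Nptx2 body was covered a little more with mH2A1 (100%, 93.1% and 71.5%) than with mH2A2 (75%, 78.4% and 69.8%). The antibodies have no common scale, and these values carry no test.

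At 30 min after training the smallest p that an exact two-sided permutation test can give with 3 and 2 mice is 0.1, so no difference could pass 0.05. For mH2A1, no window of the 10 separated the groups, against 7.12% of 21755 genes, and 1 gene body did, against 15.1%. That was Vgf, with 65.4%, 88.5% and 51.0% of its body covered in untrained and 0% in both trained mice (exact permutation p = 0.1). The Vgf window was covered by 0%, 59.8% and 0% untrained and 15.2% and 0% trained and did not separate. The Npas4 window was covered by 0%, 77.1% and 0% untrained and 0% in both trained mice, and the Bdnf window by 82.5%, 55% and 0% untrained and 0% in both trained mice. In each case 1 untrained mouse was at 0 like the trained ones. No window of the 10 had a higher mean when trained and 5 had a lower one. Over all genes the mean window coverage was 22.7% untrained and 15.3% trained, in the same direction.

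For mH2A2 at 30 min, 1 window separated the groups, against 6.39% of genes, and 3 gene bodies did, against 13.2%. The Pcsk1 window was covered by 75%, 0% and 0% untrained and 95.6% and 85.6% trained (exact permutation p = 0.2). Its body was covered by 3.1%, 0% and 0% untrained and 4.8% in both trained mice. The Inhba body was covered by 22.3%, 17.2% and 11.1% untrained and 27.1% and 29.3% trained (exact permutation p = 0.2), and the Nptx2 body by 75%, 78.4% and 69.8% untrained and 47.3% and 0% trained (exact permutation p = 0.1). Pcsk1 and Inhba were thus higher and Nptx2 lower when trained. The Npas4 window was covered by 80%, 100% and 100% untrained and by 100% and 0% trained. Trained replicate 2, the mouse at 0, had the lowest mean window coverage over all genes among the 30 libraries, 12.0%, and trained replicate 1 had 22.7%. Over all genes the mean was 25.2% untrained and 17.4% trained.

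At 1 h, mH2A1 was read in 2 and 2 mice, where the smallest exact p is 0.3333. Of the 10, 2 windows separated the groups, both higher when trained, against 11.6% of genes, and 0 gene bodies did, against 11.7%. The Vgf window was covered by 75% and 10.2% untrained and by 80% and 100% trained, and the Ntrk2 window by 35.8% and 30.8% untrained and by 55% and 40.8% trained. Vgf untrained replicate 1 came close to the trained mice. The Npas4 window was covered by 27.9% and 0% untrained and by 22.9% and 92.1% trained, and the groups overlapped. The Scg2 window was covered by 38.0% and 18.0% untrained and by 23.0% and 0% trained. The mean over all genes was 19.8% untrained and 23.4% trained.

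For mH2A2 at 1 h, with 3 and 3 mice and a smallest exact p of 0.1, 0 windows and 0 gene bodies of the 10 separated the groups, against 1.91% and 3.21% of genes. Untrained replicate 1 stood apart. It had a domain in the window of 1 of the 10 genes, where the other 5 libraries had domains at 5 to 8, and its mean window coverage over all genes was 13.6%, where untrained replicates 2 and 3 had 36.5% and 30.7%. The Npas4 window was covered by 0%, 100% and 100% untrained and 100%, 82.9% and 72.1% trained, and that of Bdnf by 0%, 7.5% and 100% untrained and 90%, 97.5% and 50% trained. For both genes the trained mice lay within the range of the untrained ones. The Pcsk1 window was at 0% in all 3 untrained mice and at 60%, 0% and 80.6% trained. Without untrained replicate 1 the number of windows that separated the groups was still 0.

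At 6 h the mH2A1 series held 5 and 5 mice, the largest groups, and no member passed. By the exact permutation test 0 of the 10 had a p under 0.05 in window or body, against 1.24% and 1.48% of 21755 genes, and 0 genes passed after adjustment. The Vgf window was covered by 80% to 100% in all 10 mice (exact permutation p = 1.0). The Npas4 window was covered by 47.9%, 100%, 100%, 37.9% and 55% untrained and by 0%, 42.9%, 47.9%, 52.9% and 100% trained (exact permutation p = 0.4444). The Bdnf window was covered by 55%, 97.5%, 0%, 0% and 0% untrained and by 72.5%, 42.5%, 0%, 97.5% and 0% trained, with mice at 0 in both groups (exact permutation p = 0.7619). The Ntrk2 window ranged from 0% to 65.8% untrained and from 0% to 55.8% trained (exact permutation p = 0.7063). The Nptx2 body was covered by at least 78.4% in every mouse (exact permutation p = 0.6429). Homer1, Pcsk1 and Rgs2 had no domain in any of the 10 mice, in window or body. The mean over all genes was 24.7% untrained and 24.3% trained.

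Set beside the RNA, the values of the loci did not follow one order. Inhba, with the largest rise in shH2afy, had an mH2A1 domain in its window in 0 and in its body in 2 of 19 libraries of mice without virus. Nptx2, which also rose in the depletion experiment, had one in its window in 13 and in its body in 19 of 19. Homer1 and Rgs2, whose RNA moved in opposite directions in the mice labelled shH2afy, both lacked mH2A1 domains in all 19. Vgf and Npas4 had domains in their windows in most libraries of both variants with all series pooled. For mH2A1 at 30 min the counts were 2 of 5 and 1 of 5. Neither gene passed against shScr. The chromatin was taken to come from other mice than the virus RNA. Some mouse numbers in the labels recur between the 6 h ChIP and the training RNA samples, and they were treated as different mice. These are values side by side and carry no test.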

How the data were processed

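RNA and ChIP libraries, each from 1 mouse, came from 81 samples: 26 RNA and 55 ChIP samples, of which 25 were inputs. Per the labels, the authors aligned RNA reads to mm10 (STAR) and deposited raw gene counts (featureCounts). Per the labels and the study's methods, ChIP reads were aligned with Bowtie2 and broad domains were called per library against input, by SICER in the labels and epic2 in the methods. The authors deposited for each domain its read counts, p-value and FDR, the log2 enrichment over input, and a score. Domains lie on bins of 200 bases.

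Genes were filtered with filterByExpr (least count 10, least total 15) and TMM-scaled, and tested in edgeR 4.0.16 (quasi-likelihood, Benjamini-Hochberg) in R 4.3.3, only the groups compared entering each fit. Thresholds were those of the study, which applied them with DESeq2 and not with edgeR. They were an adjusted p of 0.01 and a fold of 2 in depletion, 0.05 and 1.2 in training, and 0.01 in intact mice. DESeq2 1.42.0, its size factors, no filter, a replicate block and leaving out each library were alternatives. Tested on simulated data, the fit recovered 183 of 200 changed genes for shH2afy against shScr in depletion, with 4 false calls (16337 genes), 198 of 200 for training in shScr, with 15 (15438 genes), and 193 of 200 in intact mice, with 1 (15624 genes). The simulated libraries were independent, with the same dispersion for every gene. Changed genes lay above a floor of expression and differed by 2-fold or more. These counts check the code and do not give the power for smaller changes or the real spread between mice. For trained against untrained shScr mice, deviations of samples with the same replicate number correlated weakly (r = 0.17, 0.19 and 0.25 over 15424 genes). A shared number does not show that mice were paired, and the main fits held no block. None of the 10 genes passed in that contrast with or without the block.

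Domain coverage of windows of 2 kb either side of the gene start and of gene bodies was compared by exact two-sided permutation tests. Members and gene lists were chosen with earlier results of these data known. All 10 members were named, up to 4 genes with the smallest adjusted p per list and comparison, and the 5 genes most correlated with Npas4 and with Bdnf among genes with a mean of at least 5 CPM. In the RNA counts, depth limits counting error, and the p-values set the difference between groups against the spread between mice. The part of depth in the domain calls was not tested.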

Additional observations from a re-analysis of the deposited data

Results flagged for a closer look

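In the 6 h mH2A1 series, where each group held 5 mice, 40 sets of 5 coverage values (10 genes, window and body, 2 groups) were examined for a mouse far from the rest of its group, and 4 were found by Dixon's test (critical value 0.71). Chance flags about 1 in 20 sets of normally distributed values. That rate does not carry over to coverage that is mostly 0, and in 3 of the 4 the other mice were all at 0%, where any value above 0 is found whatever its size. The Npas4 gene body was 75.7% covered in trained replicate 5 and 1.9% in the next mouse. The Inhba gene body was 16.2% covered in trained replicate 2 and 0% in the others. The Scg2 gene body was 33.0% covered in untrained replicate 1 and 0% in the others, and the Ntrk2 gene body was 0.1% covered in trained replicate 1 and 0% in the others.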

How the results depend on the processing

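Among single-gene RNA values, 313 kept direction and side of the threshold under other tools, filters and the block, 3 passed newly, 3 were lost and 1 reversed. Leaving out 1 library, 403 kept both, 6 passed newly, 25 were lost and 36 reversed, none of them a value that had passed. Under other settings 219 domain values stayed within 1 SD and 31 moved, and with a mouse left out 588 stayed and 12 moved. The cause of these shifts was not tested.

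With a replicate block, shH2afy against shScr in depletion gave 1146 genes (1885 without), intact mice gave 0 (15 without), and Pcsk1 in intact mice turned to 0.0065. In the comparisons other than shScr training, r between samples of the same number ran from -0.35 to 0.53. The block ended the calls of Rgs2 (untrained) and Inhba (trained). DESeq2 gave 122 genes for shH2afy2 against shScr, 212 for training in shScr, 47 for training with the shH2afy label, with 1 of the 10 genes there, and 472 in intact mice. With no filter the counts were 327 for shH2afy2 against shScr, 2610 for shH2afy against shH2afy2 and 51 in intact mice.

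Leaving out each library in turn, the genes called ranged from 947 to 2364 for shH2afy against shScr, 0 to 2 for shH2afy2 against shScr, 2 to 2090 for shH2afy against shH2afy2, 0 to 1 for training in shScr and 1 to 416 in intact mice. Of the 10 genes, 1 to 3, 0 to 4 (shH2afy against shH2afy2), 3 to 5 and 2 to 4 (virus contrast, untrained and trained) and 0 to 1 (intact) were called.

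The loci whose groups did not overlap fell to 0 for mH2A1 gene bodies at 30 min under an FDR of 0.01, to 0 for mH2A2 windows at 30 min with a 1 kb window or any base covered, to 0 for mH2A2 bodies with any base covered, and for mH2A1 windows at 1 h to 1 with a 1 kb window and to 0 with any base. Leaving out a mouse gave 0 to 2 windows and 1 to 3 bodies for mH2A1 at 30 min, 1 to 3 and 3 to 5 for mH2A2 at 30 min, 2 to 6 and 0 to 3 for mH2A1 at 1 h, and 0 to 1 and 0 to 2 for mH2A2 at 1 h. A permutation of domain coverage within replicate numbers was not run.

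Log2 fold changes that reversed without 1 library ranged as follows. For shH2afy against shScr in depletion, Pcsk1 ran from -0.48 to 0.24. For shH2afy2 against shScr, Npas4 ran from -1.70 to 0.0486 and Nptx2 from -0.48 to 0.0043. For shH2afy against shH2afy2, Homer1 ran from -0.27 to 0.0353. For the virus contrast, untrained Bdnf ran from -0.29 to 0.0762 and Pcsk1 from -0.0262 to 0.51, and trained Bdnf from -0.44 to 0.094, Npas4 from -0.45 to 0.20, Nptx2 from -0.24 to 0.0576 and Pcsk1 from -0.11 to 0.71. For training in shScr, Inhba ran from -0.0904 to 0.31, Scg2 from -0.14 to 0.0181, Pcsk1 from -0.0643 to 0.74, Vgf from -0.0114 to 0.44 and Rgs2 from -0.0341 to 0.089. With the shH2afy label, Bdnf ran from -0.19 to 0.34, Inhba from -0.48 to 0.54, Nptx2 from -0.19 to 0.33, Rgs2 from -0.0594 to 0.11 and Scg2 from -0.10 to 0.38. In intact mice Pcsk1 ran from -0.24 to 0.0595 and Rgs2 from -0.17 to 0.0123. Of the 10 genes, Npas4 had the fewest counts in the depletion experiment (22 to 370 per library) and Inhba in intact mice (107 to 212).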
